A study of Mus musculus with 9 samples.

Results

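The genes that follow encode 8 transcription factors that establish and maintain the hepatocyte program: *Hnf4a*, *Foxa1*, *Foxa2*, *Foxa3*, *Cebpa*, *Cebpb*, *Onecut1* and *Prox1*. They were chosen by gene symbol from the 43346 genes of a bulk RNA-Seq table of mouse liver. Their measured values did not enter the rule, but earlier results of these data were known when they were chosen. All 8 passed the filter on low counts that left 15024 genes to be tested. Livers came from male C57/BL6 mice (C57BL/6J in the study's methods) aged 12 weeks. The 3 groups of 3 livers were the tissue taken out of vehicle-treated mice by a 70% partial hepatectomy (0 h, called baseline), the tissue left in vehicle-treated mice and taken 40 h later (vehicle remnants), and the same from NSC-treated mice at 40 h (NSC remnants). NSC (NSC87877) is a small molecule inhibitor of the phosphatase SHP2 that also acts on the related phosphatase SHP1. Each dose was 7.5 mg/kg, repeated every 12 h, and the sample records place the first of them 12 h before surgery. Vehicle was saline. No tissue from NSC-treated mice at 0 h was analysed here. Both comparisons with baseline therefore use the same 3 livers. No unoperated group was analysed here. In the comparison of vehicle-treated mice with baseline, surgery, elapsed time and the repeated saline doses cannot be told apart. Liver lobe differs as well, since the study's methods name the median and left lateral lobes as those resected. In the comparison of NSC-treated mice with baseline, treatment cannot be told apart from these either.

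HNF4A is a nuclear receptor that occupies a large part of the active genes of the hepatocyte, among them genes of lipid transport, bile acid synthesis and clotting. FOXA1, FOXA2 and FOXA3 are forkhead proteins that can bind nucleosomal DNA and open liver enhancers. C/EBP-alpha and C/EBP-beta are bZIP proteins that share a DNA motif: C/EBP-alpha drives metabolic genes of the quiescent hepatocyte and restrains its proliferation, whereas C/EBP-beta takes part in the acute phase response and in the hepatocyte's reentry into the cell cycle after hepatectomy. ONECUT1 (HNF6) and PROX1 act in the developing liver and in adult hepatocytes. Several of these genes are also active in other cells of the liver, *Foxa1*, *Foxa2* and *Onecut1* in bile duct cells, *Cebpb* in macrophages and *Prox1* in lymphatic endothelium. In whole liver, fewer cells of a type and less RNA per cell cannot be told apart.

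Between 23997363 and 42887589 reads per liver were counted on genes, and 3 counts in a library corresponded to at most 0.125 CPM (reads of a gene scaled to a common library size). The sample records name no individual mouse, so p-values measure the spread between these samples. Hepatocyte markers were high in every library, given as FPKM (reads scaled to gene length and library size). The sum of 9 of them, albumin and apolipoprotein genes among them, was 63117 to 64379 FPKM at baseline. It was 64576 to 79873 FPKM in vehicle remnants and 70778 to 80196 FPKM in NSC remnants, above every baseline liver. The single markers did not move together. In each comparison with baseline 3 of the 9 had a positive and 6 a negative log2 fold change. With vehicle and NSC in that order, *Hpx* was at 1.73 and 1.68 and *Fga* at 1.61 and 1.12. *Alb* was at -0.02 and -0.10, *Apoa1* at -0.09 and -0.27, and *Ass1* at -1.43 and -1.99. The summed levels of 7 cholangiocyte markers were 30.1 to 33.7 FPKM at baseline, 48.7 to 80.7 FPKM in vehicle remnants and 62.9 to 86.5 FPKM in NSC remnants, with *Cftr* under 0.1 FPKM in every library. The summed levels of 6 macrophage markers were 59.9 to 85.7, 64.7 to 109 and 133 to 237 FPKM in the same order. NSC replicate 1 stood apart, with 84.9 FPKM for 10 proliferation markers against 255 and 257 FPKM in replicates 2 and 3, and with the highest sums of macrophage and stellate cell markers (237 and 154 FPKM). Baseline replicate 2 was the high liver of its group for 6 of the 8 factors, all but *Hnf4a* and *Cebpa*.

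Per gene length, the factors spanned a wide range of transcript levels. *Hnf4a* was the most abundant of the 8 in each of the 3 groups, with a mean of 155 FPKM over the 9 livers and a rank of 351 among the tested genes. *Cebpa* (48.2 FPKM) and *Foxa3* (31.4 FPKM) followed. *Prox1* (9.80 FPKM) and *Cebpb* (8.51 FPKM) lay in the middle, and *Foxa2* (4.77 FPKM), *Onecut1* (4.50 FPKM) and *Foxa1* (2.73 FPKM) were lowest, *Foxa1* being above 47.3% of tested genes. In the order of the baseline means, livers did not overlap between *Hnf4a* and *Cebpa*, *Cebpa* and *Foxa3*, *Prox1* and *Onecut1*, or *Foxa2* and *Foxa1*. *Foxa3* overlapped *Cebpb* there, *Cebpb* overlapped *Prox1*, and *Onecut1* overlapped *Foxa2*. In vehicle remnants *Foxa3* stood above *Cebpa*, where the baseline order was the reverse: *Foxa3* had 40.4 ± 2.82 FPKM and *Cebpa* 27.8 ± 6.45 FPKM (SD, n = 3 each), with no overlap between the livers. In NSC remnants *Cebpa* (35.7 ± 9.59 FPKM) and *Foxa3* (33.8 ± 5.67 FPKM; SD, n = 3 each) overlapped.

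**Figure D1:**
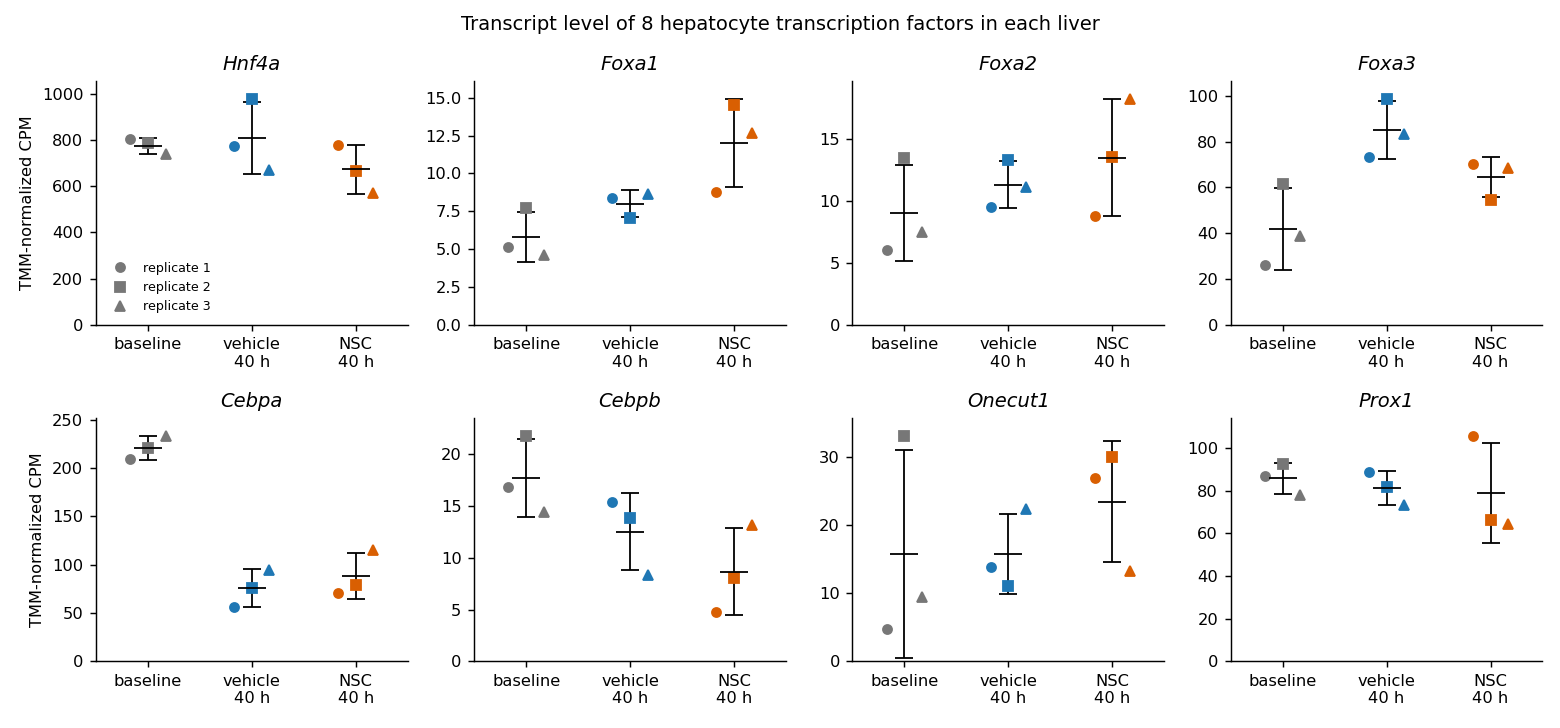
Transcript level of the 8 factors in each liver as TMM-normalized CPM (y axes start at 0 and differ between panels), for baseline, vehicle 40 h and NSC 40 h. Symbols are replicates 1 to 3, bars are the mean with its SD (n = 3). *Cebpa* lies between 209 and 233 CPM at baseline and between 55.9 and 116 CPM in all 6 remnants, and *Foxa3* is at 73.5 to 98.7 CPM in vehicle remnants against 25.9 to 61.4 CPM at baseline.

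Which of these factors differ between resected liver and the regenerating remnant was tested first in vehicle-treated mice. A gene is said to have passed when its adjusted p was under 0.05 (edgeR quasi-likelihood test over the 15024 genes, Benjamini-Hochberg adjustment), and fold changes were computed on TMM-normalized counts. Of the 8 factors, *Cebpa* fell and *Foxa3* rose. Among all tested genes 12.7% rose and 11.0% fell, so 1 of 8 in each direction is near the share of all genes. Of the genes that passed, 53.7% rose, and 40.0% of those that passed after a correction for GC content. *Cebpa* alone also exceeded an absolute log2 fold change of 1.5, as 7.22% of tested genes did. The 3 livers of each group did not overlap for 2 of the 8 factors, against 46.3% of tested genes. The median log2 fold change was 0.03 over the 8 factors and 0.01 over all tested genes.

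*Cebpa* (ENSMUSG00000034957, chromosome 7, 35119293 to 35121926, plus strand, GRCm38) had 209, 221 and 233 CPM in the 3 baseline livers and 55.9, 76.0 and 94.9 CPM in vehicle remnants. Every remnant was thus below every baseline liver by more than the spread within either group. The fold was 0.342 (95% interval 0.244 to 0.479), a log2 fold change of -1.55 (SE 0.22, adjusted p = 0.000687, edgeR quasi-likelihood test). In NSC remnants *Cebpa* had 70.3, 79.5 and 116 CPM, likewise below all baseline livers, with a fold of 0.400 (0.286 to 0.559) and a log2 fold change of -1.32 (SE 0.22, adjusted p = 0.00105 by the same edgeR test). *Cebpa* passed in all 18 alternative fits of both comparisons. Its longest transcript holds 62.6% G and C, and with a correction for GC content the log2 fold change was -0.78 with NSC (adjusted p = 0.0281, edgeR) and -1.39 with vehicle. Between the treatments at 40 h the log2 fold change of *Cebpa* was 0.23 (95% interval -0.25 to 0.70, adjusted p = 0.588 by the same edgeR test).

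*Cebpb* (ENSMUSG00000056501, chromosome 2, 167688915 to 167690418, plus strand), the partner that is known for its rise in the early hours after hepatectomy, had a lower mean than baseline at 40 h in both treatments. Its livers had 16.8, 21.7 and 14.4 CPM at baseline, 15.4, 13.8 and 8.30 CPM in vehicle remnants and 4.77, 8.05 and 13.1 CPM in NSC remnants. The vehicle remnants overlapped the baseline livers, and the NSC remnants lay below all of them. Against baseline the log2 fold change was -0.49 with vehicle (95% interval -1.26 to 0.27, adjusted p = 0.330) and -1.04 with NSC (-1.82 to -0.26, adjusted p = 0.0431, both by edgeR's quasi-likelihood test). The NSC value is close to the threshold and passed in 7 of 18 alternative fits. It did not pass after correction for GC content, where it was -0.41 (adjusted p = 0.262; the *Cebpb* transcript holds 67.2% G and C), nor without NSC replicate 1 (-0.74, adjusted p = 0.0779) or NSC replicate 2 (-0.99, 0.119), without baseline replicate 1 (-1.07, 0.0804), 2 (-0.86, 0.123) or 3 (-1.16, 0.0583), or without vehicle replicate 2 (-1.04, 0.0606), each by the same edgeR test. The call was also lost with library size only, with all genes of at least 1 count, with only the groups compared and with the replicate block. NSC replicate 1, with the lowest *Cebpb* level, had the highest sum of macrophage markers. The part of macrophages in the *Cebpb* level was not tested.

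Because the C/EBP proteins form dimers with each other and share sites, their ratio within a liver was followed as well. The log2 ratio of *Cebpb* to *Cebpa* FPKM was -2.83, -2.54 and -3.21 at baseline, -1.06, -1.65 and -2.71 in vehicle remnants, and -3.07, -2.50 and -2.33 in NSC remnants. A value of this kind is free of library scaling, and *Cebpa* exceeded *Cebpb* in every liver. The mean differed from baseline by 1.05 in vehicle remnants (2-sided exact permutation test, p = 0.2) and by 0.22 in NSC remnants (exact p = 0.5), and NSC differed from vehicle by -0.83 (exact p = 0.3). Adjusted over the 3 comparisons these are 0.45, 0.5 and 0.45. Single livers moved these differences. Against baseline the vehicle value was 0.68 without vehicle replicate 1, and the NSC value was 0.44 without NSC replicate 1, 0.07 without NSC replicate 3, 0.39 without baseline replicate 2 and 0.05 without baseline replicate 3. NSC differed from vehicle by -0.46 without vehicle replicate 1 and by -1.28 without vehicle replicate 3. All 3 comparisons overlapped, and 3 livers against 3 cannot give an exact p below 0.1.

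The 250 bases upstream of the *Cebpa* and *Cebpb* starts are shown because both genes fell with NSC and both are rich in G and C. Sequences are those of RefSeq promoters on GRCm38.p6, printed 5′ to 3′ on the gene's strand, with capitals marking matches on either strand to TATAAA (the core of a TATA box), CCAAT, TTGCNNAA (a C/EBP palindrome core), TGACG (the core of a cAMP response element), TGTTTAC (a forkhead core) and ATCGAT (a ONECUT core). No matches in capitals overlap in the windows shown. Among 32851 RefSeq windows of this length, 12.4% held TATAAA, 33.8% CCAAT, 9.56% TTGCNNAA, 17.8% TGACG, 3.17% TGTTTAC and 0.728% ATCGAT. A match describes letters only.
*Cebpa*, chr7:35119043-35119292 (+): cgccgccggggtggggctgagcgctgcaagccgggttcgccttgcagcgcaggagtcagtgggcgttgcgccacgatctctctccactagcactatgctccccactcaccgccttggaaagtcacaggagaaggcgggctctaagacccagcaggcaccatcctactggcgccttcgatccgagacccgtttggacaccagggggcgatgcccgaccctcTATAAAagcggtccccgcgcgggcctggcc
*Cebpb*, chr2:167688665-167688914 (+): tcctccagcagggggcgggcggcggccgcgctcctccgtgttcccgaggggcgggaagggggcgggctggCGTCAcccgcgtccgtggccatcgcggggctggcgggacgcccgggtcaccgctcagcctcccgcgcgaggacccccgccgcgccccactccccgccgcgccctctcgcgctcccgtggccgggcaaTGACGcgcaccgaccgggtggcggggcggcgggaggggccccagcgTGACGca

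The *Cebpa* window held TATAAA at 30 to 25 bases upstream of the start and had 66.4% G and C. The *Cebpb* window had no TATAAA and 3 matches to TGACG, at 180 to 176, 53 to 49 and 7 to 3 bases upstream, with 41 CpG dinucleotides and 81.6% G and C, above 99.3% of all windows, whose median was 52.4%.

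Among the 3 FOXA genes, *Foxa3* passed with vehicle and *Foxa1* with NSC. *Foxa3* (ENSMUSG00000040891, chromosome 7, 19013282 to 19023538, minus strand), the FOXA gene with the highest level per length in every liver, had 25.9, 61.4 and 38.8 CPM at baseline, 73.5, 98.7 and 83.5 CPM in vehicle remnants and 70.4, 54.5 and 68.6 CPM in NSC remnants. The vehicle remnants lay above all baseline livers, whereas 1 NSC remnant was below baseline replicate 2. The log2 fold change against baseline was 1.02 with vehicle (SE 0.26, adjusted p = 0.0180, edgeR quasi-likelihood test), a fold of 2.03 (95% interval 1.35 to 3.03). With NSC it was 0.62 (SE 0.26, 95% interval 0.04 to 1.20, adjusted p = 0.0912, edgeR). The call with vehicle passed in 15 of 18 alternative fits. It was lost without baseline replicate 3 (0.97, adjusted p = 0.0637), vehicle replicate 2 (0.90, 0.0610) or vehicle replicate 3 (1.04, 0.0504), by the same edgeR test. Without baseline replicate 2, the highest of its group, *Foxa3* also passed with NSC (0.99, adjusted p = 0.00591, edgeR), as it did after the GC correction (0.80, adjusted p = 0.0379) and with library size only (0.76, adjusted p = 0.0389). Between the treatments the log2 fold change was -0.40 (95% interval -0.98 to 0.18, adjusted p = 0.415 by edgeR), and the 3 NSC remnants lay below the 3 vehicle remnants.

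*Foxa1* (ENSMUSG00000035451, chromosome 12, 57540631 to 57546121, minus strand) was highest in NSC remnants. It had 5.12, 7.70 and 4.59 CPM at baseline, 8.36, 7.02 and 8.64 CPM in vehicle remnants and 8.79, 14.5 and 12.7 CPM in NSC remnants. The NSC remnants lay above every other liver, NSC replicate 1 by a small margin. Against baseline the log2 fold change was 1.05 with NSC (SE 0.24, adjusted p = 0.00614, edgeR quasi-likelihood test), a fold of 2.06 (95% interval 1.43 to 2.98), and it passed in all 18 alternative fits (0.89 to 1.30). With vehicle it was 0.46 (SE 0.24, 95% interval -0.06 to 0.99, adjusted p = 0.186, edgeR). In the direct test of NSC against vehicle the log2 fold change was 0.58 (SE 0.24, 95% interval 0.06 to 1.10), with an unadjusted p of 0.0314 and an adjusted p of 0.215 in edgeR, so the difference between the treatments did not pass. Without NSC replicate 1 it was 0.76 (adjusted p = 0.0593, edgeR). With vehicle it was 0.72 without baseline replicate 2 (adjusted p = 0.0590, edgeR). Of 6 tested cholangiocyte markers 4 rose with vehicle and 3 with NSC, against 12.7% and 18.2% of all tested genes. Their sum was highest in NSC replicate 2, the liver with the highest *Foxa1* level, and next in vehicle replicate 1 (80.7 FPKM), where *Foxa1* was at 8.36 CPM. Between the treatments 3 of the 6 tested cholangiocyte markers had positive and 3 had negative log2 fold changes, and none passed. *Krt19*, *Krt7* and *Sox9* were at -1.08, -1.02 and -0.46. *Spp1*, *Anxa4* and *Epcam* were at 0.20, 0.22 and 0.18. The part of bile duct cells in the *Foxa1* level was not tested.

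*Foxa2* (ENSMUSG00000037025, chromosome 2, 148042877 to 148046969, minus strand) did not pass in any comparison. It had 6.07, 13.4 and 7.52 CPM at baseline, 9.51, 13.3 and 11.1 CPM in vehicle remnants and 8.76, 13.5 and 18.2 CPM in NSC remnants, and all groups overlapped. Its log2 fold change was 0.33 with vehicle (95% interval -0.38 to 1.03) and 0.58 with NSC (-0.13 to 1.29), so with NSC a change of the size seen for *Foxa1* lies within the interval. Baseline replicate 2 was the high liver of its group here too. Without it the log2 fold change with NSC was 0.99 (adjusted p = 0.0245, edgeR quasi-likelihood test), and after the GC correction it was 0.89 (adjusted p = 0.0468, edgeR). It was 0.36 without baseline replicate 1 and 0.31 without NSC replicate 3. With vehicle the value was 0.74 without baseline replicate 2, 0.11 without baseline replicate 1, 0.22 without baseline replicate 3 and 0.20 without vehicle replicate 2, none of which passed.

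As a share of the summed FPKM of the 3 FOXA genes, *Foxa3* held 75.3%, 78.8% and 80.5% at baseline, 84.5%, 86.1% and 84.7% in vehicle remnants and 84.3%, 72.3% and 74.3% in NSC remnants. The vehicle remnants lay above all 6 other livers, the closest being NSC replicate 1. The mean share was 6.86 percentage points above baseline with vehicle (2-sided exact permutation test, p = 0.1) and differed from it by -1.28 points with NSC (exact p = 0.8). NSC differed from vehicle by -8.14 points (exact p = 0.1). The value of 0.1 is the smallest that 3 livers against 3 allow, and adjusted over the 3 comparisons these are 0.15, 0.8 and 0.15. Without NSC replicate 1 the difference of NSC from baseline was -4.94 points, and without NSC replicate 2 it was 1.05 points. *Foxa2* held 13.4% to 15.2%, 9.40% to 10% and 9.02% to 16.9% in the same order of groups, and *Foxa1* 6.08% to 9.52%, 3.92% to 6.14% and 6.73% to 12.3%.

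**Figure D2:**
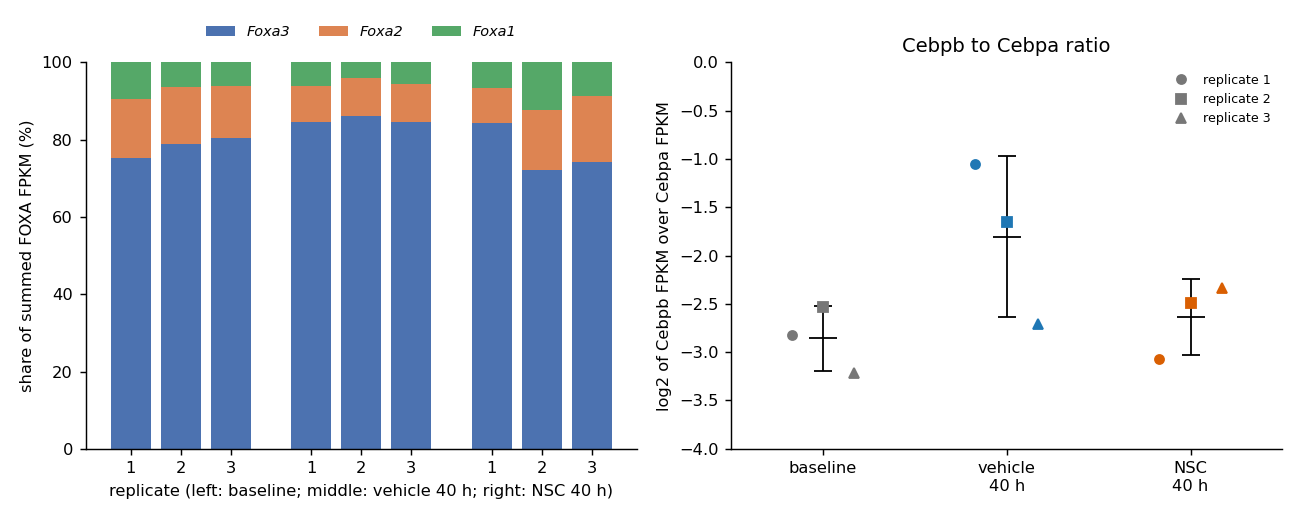
Left, shares of *Foxa3*, *Foxa2* and *Foxa1* in their summed FPKM (%) in each of the 9 livers. Right, log2 of the ratio of *Cebpb* to *Cebpa* FPKM per liver, with the mean and SD (n = 3). *Foxa3* holds 84.5% to 86.1% in vehicle remnants, and NSC replicate 1 (84.3%) lies nearer to them than to NSC replicates 2 and 3 (72.3% and 74.3%).

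The upstream windows of the FOXA genes that passed are shown for comparison with those of the C/EBP genes, with capitals as above.
*Foxa3*, chr7:19023540-19023789 (-): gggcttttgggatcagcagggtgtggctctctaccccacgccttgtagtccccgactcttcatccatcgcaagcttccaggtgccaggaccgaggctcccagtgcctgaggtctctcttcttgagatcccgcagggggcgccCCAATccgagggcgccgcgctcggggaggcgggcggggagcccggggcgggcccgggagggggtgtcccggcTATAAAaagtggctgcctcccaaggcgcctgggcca
*Foxa1*, chr12:57546112-57546361 (-): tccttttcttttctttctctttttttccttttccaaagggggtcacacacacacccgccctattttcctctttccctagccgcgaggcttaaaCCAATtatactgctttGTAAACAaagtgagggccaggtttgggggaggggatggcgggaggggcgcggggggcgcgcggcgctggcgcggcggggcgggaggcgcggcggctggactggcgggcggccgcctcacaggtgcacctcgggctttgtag

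Positions count from the RefSeq starts. For *Foxa3* and *Foxa1* these did not match the first bases of a GENCODE M21 transcript, whereas those of *Cebpa* and *Cebpb* did. The *Foxa3* window held TATAAA at 36 to 31 and CCAAT at 108 to 104 bases upstream. The *Foxa1* window held no TATA box core. It held CCAAT at 157 to 153 bases and a forkhead core at 141 to 135 bases, the motif that FOXA proteins themselves bind and that 3.17% of windows contain.

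*Hnf4a* (ENSMUSG00000017950, chromosome 2, 163506808 to 163572910, plus strand) did not pass in any comparison, and with a biological coefficient of variation of 0.182 it varied less between replicates than most tested genes (34.8% were lower). It had 804, 786 and 737 CPM at baseline, 775, 977 and 671 CPM in vehicle remnants and 780, 668 and 570 CPM in NSC remnants. The fold against baseline was 1.04 with vehicle (95% interval 0.785 to 1.38) and 0.867 with NSC (0.654 to 1.15), so neither a rise nor a fall within these bounds is excluded by the data. Between the treatments the log2 fold change was -0.26 (95% interval -0.67 to 0.14, adjusted p = 0.452, edgeR quasi-likelihood test).

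*Prox1* (ENSMUSG00000010175, chromosome 1, 190118035 to 190170714, minus strand), a homeodomain factor of the hepatocyte lineage, had 87.0, 92.5 and 78.0 CPM at baseline, 89.0, 81.6 and 73.3 CPM in vehicle remnants and 106, 66.1 and 64.3 CPM in NSC remnants. NSC replicate 1 was the highest and NSC replicates 2 and 3 the lowest of all 9 livers. The fold against baseline was 0.947 with vehicle (95% interval 0.711 to 1.26) and 0.918 with NSC (0.689 to 1.22). On the log2 scale the NSC value was -0.12, and it was -0.39 without NSC replicate 1 (adjusted p = 0.0563, edgeR), -0.010 without NSC replicate 2 and 0.0042 without NSC replicate 3. The sum of the sinusoidal and lymphatic endothelial markers, which mixes both cell types, was also highest in NSC replicate 1 (64.0 FPKM against 30.8 and 39.6). The part of lymphatic endothelium in the *Prox1* level was not tested.

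*Onecut1* (ENSMUSG00000043013, chromosome 9, 74861921 to 74891781, plus strand) was the most variable of the 8 factors, with a biological coefficient of variation of 0.574, above 98.2% of tested genes. It had 4.71, 33.1 and 9.40 CPM at baseline, 13.8, 11.1 and 22.4 CPM in vehicle remnants and 26.9, 30.0 and 13.3 CPM in NSC remnants. Baseline replicate 2 alone was above every other liver. With it, the log2 fold change was -0.0018 with vehicle (95% interval -1.64 to 1.63) and 0.57 with NSC (-1.06 to 2.21). Without it the values were 1.16 (adjusted p = 0.122) and 1.73 (adjusted p = 0.0281), by edgeR's quasi-likelihood test, so the call depends on 1 baseline liver.

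**Figure D3:**
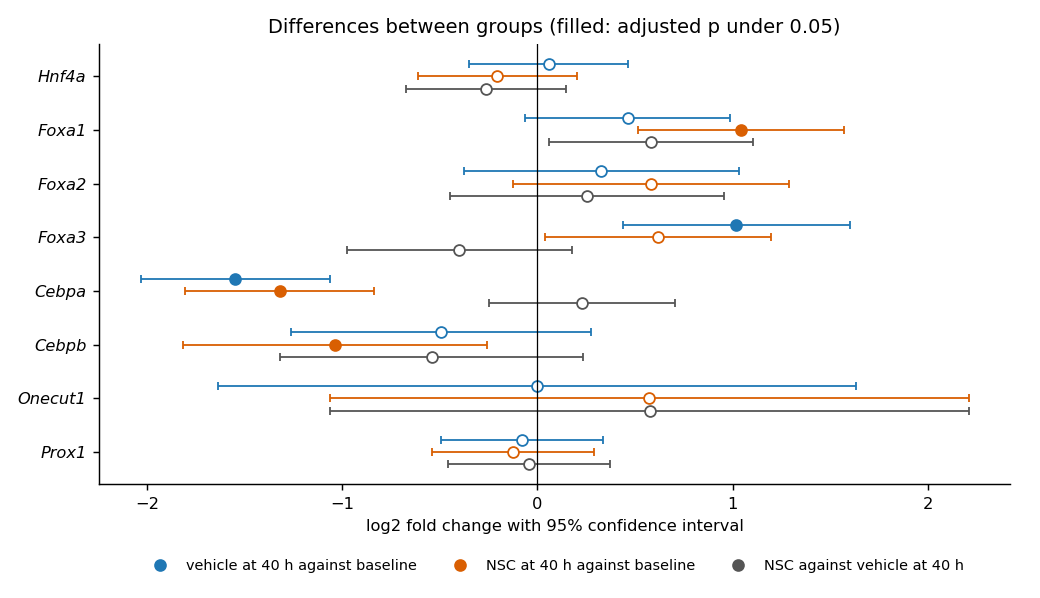
Log2 fold change of each factor with its 95% confidence interval in the 3 comparisons, with filled points where the adjusted p was under 0.05 (edgeR quasi-likelihood test). *Cebpa* is at -1.55 and -1.32 against baseline and at 0.23 between the treatments, *Foxa1* is at 0.46 and 1.05, and the intervals of *Onecut1* reach beyond 1.5 log2 units on both sides of 0 with vehicle.

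In NSC-treated mice, then, *Foxa1* rose and *Cebpa* and *Cebpb* fell against baseline, 3 of 8 factors (after the GC correction 3 rose, *Foxa1*, *Foxa2* and *Foxa3*, and *Cebpa* fell), where 18.2% of all tested genes rose and 16.5% fell. Of the genes that passed with NSC, 52.4% rose, against 41.7% after the GC correction and 65.4% with library size only. None of the 8 exceeded the log2 fold change of 1.5, against 8.13% of tested genes, and livers did not overlap for 3 of 8 factors, against 47.1% of tested genes. With baseline replicate 2 left out 5 of 8 factors passed: *Foxa1*, *Foxa2*, *Foxa3*, *Onecut1* and *Cebpa*. The question of the study, what NSC adds to regeneration, is addressed for these genes by the direct comparison at 40 h. None of the 8 factors passed in it by edgeR's quasi-likelihood test or by any of the 18 alternative fits, DESeq2 and the edgeR exact test among them, and 1 factor (*Foxa1*) had an unadjusted p under 0.05. Of all tested genes 0.00% rose and 0.0399% fell, and 0.0200% also exceeded the fold threshold. These are 6 genes by the quasi-likelihood test, with 2929 at an unadjusted p under 0.05, against 667 genes by DESeq2 and 397 by the edgeR exact test. Livers of the 2 treatments did not overlap for *Foxa1* (higher with NSC) and *Foxa3* (lower with NSC), 2 of 8, against 22.5% of tested genes.

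Genes under the control of these factors were followed from lists drawn from general knowledge, in which 8 of 47 genes stand in more than 1 list. The counts of each list stand beside 12.7% of all tested genes that rose and 11.0% that fell with vehicle. With NSC these shares were 18.2% and 16.5%. Of 22 HNF4A target genes, 3 rose and 6 fell with vehicle and 3 rose and 10 fell with NSC, although the *Hnf4a* transcript itself did not pass. The median log2 fold changes were -0.29 and -0.74, against 0.01 over all tested genes in both comparisons. *Slc10a1*, the bile acid uptake transporter NTCP, was at -1.17 and -1.14, and *Cyp27a1*, an enzyme of bile acid synthesis, at -1.15 and -1.78. *Apoa4*, an apolipoprotein of triglyceride-rich particles, rose by 4.96 and 3.45, and *Ahsg*, which encodes the plasma protein fetuin-A, by 1.33 and 0.65. The calls with NSC of *Apoa4* and *Ahsg* were lost without baseline replicate 1 (adjusted p = 0.0519 and 0.0937, edgeR) or 3 (0.0598 and 0.0882), and that of *Ahsg* also without baseline replicate 2 (0.0664) or NSC replicate 1 (0.0742). After the GC correction 10 HNF4A targets fell with vehicle. The count that rose with NSC was 1 without NSC replicate 1 or baseline replicate 1 or 2, and 0 without baseline replicate 3.

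Of 10 FOXA target genes, 1 rose and 4 fell with vehicle and 1 rose and 5 fell with NSC, with medians of -0.67 and -1.40. The count that fell with vehicle was 2 without baseline replicate 1 or 2 or vehicle replicate 3, and 6 after the GC correction. The gene that rose was *Afp*, the fetal serum protein alpha-fetoprotein, at 2.83 and 2.46. *G6pc*, the glucose-6-phosphatase that releases glucose from the liver, was at -2.03 and -2.60, and *Tat*, tyrosine aminotransferase, at -1.25 and -1.93. Of 11 C/EBP-alpha target genes, none rose and 5 fell with vehicle, and 1 rose and 6 fell with NSC, with medians of -0.84 and -0.86. Without NSC replicate 1 or baseline replicate 2 or 3 none of them rose with NSC. The C/EBP-alpha list shares *Alb*, *Cps1*, *G6pc*, *Pck1*, *Tat* and *Ttr* with the FOXA list, so the counts of these lists are not independent. *Gys2*, the liver glycogen synthase, which is not in the FOXA list, was at -1.36 and -0.86.

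Of 13 acute phase genes listed for C/EBP-beta, 7 rose and none fell in each comparison with baseline, with medians of 1.37 and 1.68. *Hpx*, the heme-binding plasma protein hemopexin, was at 1.73 and 1.68, and *Orm1*, alpha-1-acid glycoprotein, at 1.68 and 1.95. With NSC the count was 3 without NSC replicate 2 and 4 without baseline replicate 1 or 3, and over all single libraries left out it ran from 3 to 9, with vehicle from 5 to 9. These genes answer to other factors as well, and the share of C/EBP-beta in them was not tested. In NSC against vehicle no gene of the 4 target lists passed in edgeR's quasi-likelihood test, and with single libraries left out at most 1 gene of a list did.

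**Figure D4:**
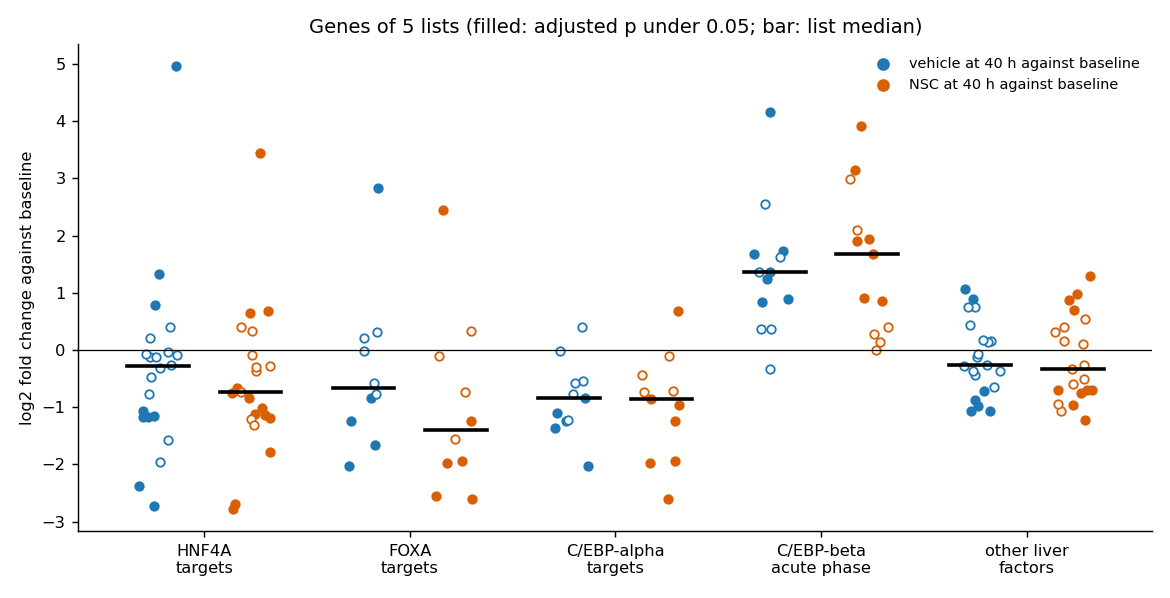
Log2 fold change against baseline of each gene of the 4 target lists and of the list of other liver-enriched factors, with vehicle (blue) and NSC (orange), filled where the adjusted p was under 0.05 and with bars at the list medians. Medians are -0.84 and -0.86 for C/EBP-alpha targets and 1.37 and 1.68 for acute phase genes, and the highest HNF4A target is *Apoa4* at 4.96 and 3.45.

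Among 21 other liver-enriched transcription factors, 2 rose and 5 fell with vehicle and 4 rose and 6 fell with NSC (medians -0.25 and -0.33). Of all tested genes 12.7% rose and 11.0% fell with vehicle, and 18.2% rose and 16.5% fell with NSC. A rise in 2 and 4 of 21 is near these shares. None of the 21 passed between the treatments in the quasi-likelihood test. The counts that rose were 0 with vehicle and 2 with NSC without baseline replicate 1, 1 and 2 without baseline replicate 3, and 1 with vehicle without vehicle replicate 2 or 3, and 6 rose with NSC without NSC replicate 3. The count that fell with vehicle was 3 without baseline replicate 2 or 3 or any 1 vehicle replicate. *Nr1h4*, the bile acid receptor FXR, was at -1.06 (adjusted p = 0.000522) and -0.69 (adjusted p = 0.00362, both by edgeR). *Nfib*, a nuclear factor I gene, was at -0.72 with vehicle (adjusted p = 0.00270, edgeR) and at -0.33 with NSC (adjusted p = 0.0673), where it did not pass except after the GC correction (-0.76). *Gata6*, a zinc finger factor of liver development, was at 1.06 and 0.98, and *Tbx3*, a T-box factor that is prominent in the fetal liver, at 0.90 and 0.87. Without baseline replicate 1 the adjusted p of *Gata6* was 0.0605 and 0.0624 in the 2 comparisons. It was 0.0522 and 0.0541 without baseline replicate 3, 0.0559 with vehicle without vehicle replicate 2, and 0.0572 with NSC without NSC replicate 2. That of *Tbx3* with vehicle was 0.0571 without baseline replicate 1 and 0.0661 without vehicle replicate 3, all by edgeR.

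The loci of 3 factors whose transcript did not pass held a long noncoding RNA gene that fell in both treatments. *Hnf4aos*, which overlaps *Hnf4a* on the opposite strand, had 8.81, 10.6 and 8.88 CPM at baseline, 1.18, 1.55 and 1.14 CPM in vehicle remnants and 0.840, 1.49 and 1.41 CPM in NSC remnants. Its log2 fold change was -2.86 with vehicle (SE 0.27, adjusted p = 6.18e-05) and -2.92 with NSC (SE 0.27, adjusted p = 4.03e-05), both by edgeR's quasi-likelihood test. *9030622O22Rik*, a long intergenic noncoding RNA gene 2674 bases from *Foxa2*, went from 15.7 to 20.7 CPM at baseline to 5.06 to 7.49 CPM in vehicle remnants and 5.17 to 7.57 CPM in NSC remnants. It was at -1.47 (adjusted p = 0.000640) and -1.45 (adjusted p = 0.000447, edgeR). *Prox1os*, on the strand opposite to *Prox1* and overlapping it, went from 5.54 to 7.30 CPM to 2.51 to 3.01 and 2.14 to 3.27 CPM, at -1.20 (adjusted p = 0.00415) and -1.32 (adjusted p = 0.00177, edgeR). Remnants and baseline livers did not overlap for any of the 3, and all 3 passed in the 18 alternative fits of both comparisons. The libraries were made with a strand-specific kit, but whether counting used the strand is not given in the sources used here, so reads of a gene and its antisense partner cannot be told apart.

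**Figure D5:**
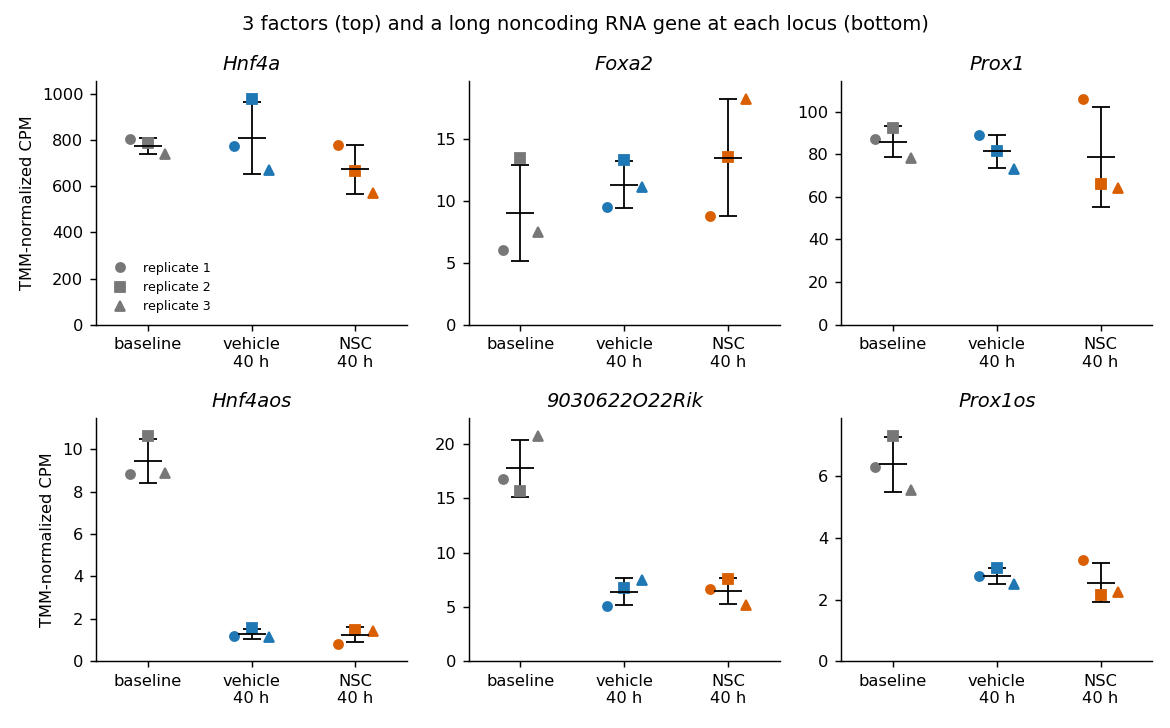
TMM-normalized CPM per liver of *Hnf4a*, *Foxa2* and *Prox1* (top) and of a long noncoding RNA gene at each locus (bottom), with the mean and SD (n = 3). *Hnf4aos* is at 8.81 to 10.6 CPM at baseline and 0.840 to 1.55 CPM in the 6 remnants, while *Hnf4a* spans 570 to 977 CPM in the remnants around a baseline of 737 to 804 CPM.

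In all, 59 genes overlapped a factor or started within 100 kb of it, and 28 of them were tested. With vehicle 1 rose and 7 fell, with NSC 2 rose and 9 fell, and none passed between the treatments. Among all tested genes 12.7% rose and 11.0% fell with vehicle, and 18.2% rose and 16.5% fell with NSC. *Ttpal*, a gene of the alpha-tocopherol transfer protein family near *Hnf4a*, was at 1.56 and 1.27, and *Fam214a*, near *Onecut1*, at -1.22 and -1.47. *A530013C23Rik*, 759 bases from *Cebpb*, was at -2.16 and -1.98 with at most 31 counts in a library. Its calls were lost without baseline replicate 2 (adjusted p = 0.0544 and 0.0619, edgeR), with vehicle without vehicle replicate 1 (0.0654), and with NSC without NSC replicate 2 (0.0629). *Tmem189*, which overlaps *Cebpb* on the other strand, was at -0.13 and -0.31 and did not pass, except with NSC without NSC replicate 3 (-0.44, adjusted p = 0.0459, edgeR). *Gm20649* overlaps *Onecut1* on the same strand and shared its high baseline replicate 2 (4.49, 23.3 and 7.09 CPM at baseline). It was at 0.04 and 0.69 and did not pass. Without that liver it passed with NSC (1.70, adjusted p = 0.0161, edgeR), and reads of these genes cannot be told apart either. The other 20 tested neighbours lay between -1.25 and 0.48 with vehicle and between -1.14 and 0.55 with NSC, of which 2 and 5 passed.

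The genes whose pattern over the 9 libraries was most like that of each factor are named from 12699 genes with a mean of at least 1 CPM, by Pearson's r in log2 CPM. The 9 points share 3 groups and their library scaling, and such values are descriptions. *Hebp1* (0.99) and *Gstz1* (0.99) were most like *Cebpa*, and *Zfp763* (0.99) and *Gm16580* (0.98) most like *Foxa1*. For *Foxa3* these were *Tspan4* (0.97) and *Tnfsf12Tnfsf13* (0.96), and for *Foxa2* *Ap1s1* (0.95) and *Gpn3* (0.92). *Bptf* (0.95) and *Reln* (0.95) were most like *Hnf4a*. *Cebpb* had *Toporsos* (0.98) and *Pemt* (0.97), *Onecut1* had the overlapping *Gm20649* (0.99) and *Rnf135* (0.94), and *Prox1* had *Iqgap2* (0.93) and *Mamdc2* (0.92). Among the 28 pairs of factors, r ran from -0.70 for *Cebpa* with *Foxa3* to 0.76 for *Foxa1* with *Foxa2*.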

How the data were processed

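RNA from 9 mouse livers was made into libraries with the TruSeq Stranded mRNA kit by the authors. Per the labels, reads were aligned with STAR 2.6.1 and assigned to genes with featureCounts (Subread 1.5.1). The strand setting is not given in the sources used here. The submitters' processing notes name the build hg38, whereas the deposited table carries mouse genes, and 78.8% of its genes have the same interval as in GENCODE M21 on GRCm38. The raw counts per gene were used as deposited. The deposited FPKM values, which the authors scaled by gene length and library total, could be recomputed from the counts with the length plus 1 base. Among values above 1 FPKM the relative difference was at most 4.96e-10.

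The 8 genes, the gene lists and the tests were chosen with earlier results of these data known. All 9 libraries were fitted together in edgeR 4.0.16 (R 4.3.3, limma 3.58.1) with TMM factors, filterByExpr and the robust quasi-likelihood test, and p-values were adjusted by Benjamini-Hochberg over 15024 genes. Ratios and shares within a library were compared by 2-sided exact permutation tests. Log2 CPM used a prior count of 2. The 18 alternative fits were DESeq2 1.42.0, the edgeR exact test, RLE factors, library size only, a filter of 1 count in all, a filter of 10 counts in each library, a fit of just the groups at issue, a replicate block, a loess correction (span 0.5) for the GC content of the longest transcript, known for 99.2% of tested genes, and each of the 9 libraries left out. Counts of the gene lists without each library and after the GC correction were added after seeing the data. The code was tested on simulated data. The replicate numbers were not treated as pairs, because the sources do not tie a number to a mouse. Correlations of deviations between libraries of the same number ran from -0.05 to 0.13, and between libraries of different numbers from -0.12 to 0.07. Only baseline and vehicle remnants could share mice, and their same-number values were 0.08, 0.07 and -0.05. These values do not decide whether the numbers mark mice.

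Named genes were the 8 factors, the tested genes that overlap them or start within 100 kb (of 28, those named in the text and the rest as a range), the 2 genes most like each factor among those of mean CPM 1 or more, and from each list of targets and other factors up to 2 rising and 2 falling genes of smallest adjusted p with vehicle. Of the marker genes, *Tf* and *Adgre1* were not matched under those names. Neutrophil, lymphocyte and erythroid markers were also followed: with vehicle and NSC 1 and 4 of 6 neutrophil and monocyte markers rose, 2 and 1 of 6 lymphocyte markers fell, and 1 of 5 erythroid markers fell in both. Of 8 stellate cell markers 5 and 1 rose, of 6 macrophage markers 2 and 4 rose, and of 8 endothelial markers 1 rose and 1 fell in both. Of 9 hepatocyte markers 2 and 2 rose and 1 and 3 fell, and all 10 proliferation markers rose. Of all tested genes 12.7% and 18.2% rose and 11.0% and 16.5% fell. Upstream sequences came from RefSeq for GRCm38.p6, in which all 8 factors matched by symbol, with 12 start sites.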

Additional observations from a re-analysis of the deposited data

How the results depend on the processing

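Among the 8 factors, *Cebpa* in both comparisons with baseline and *Foxa1* with NSC kept their direction and side of the threshold in all 18 alternative fits, and no factor passed between the treatments in any of them. With each library left out in turn, 1 to 2 factors passed with vehicle and 2 to 5 with NSC, and 2285 to 4538 of all genes passed with vehicle. With the added fold threshold 1 factor and 1085 genes passed with vehicle, 0 factors and 1222 genes with NSC, and 3 genes between the treatments. Between the treatments the number of all genes that passed was 1 with library size only, 221 with all genes of at least 1 count, 667 with DESeq2, 397 with the edgeR exact test, 0 after the GC correction, and 0 to 994 with single libraries left out (994 without NSC replicate 1, 0 without vehicle replicate 2). Library size alone moved the median log2 fold change of all genes to 0.15 for NSC against baseline and 0.14 between the treatments.

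With the replicate block 11 genes passed between the treatments, *Cebpb* with NSC lost its call (adjusted p = 0.0916, edgeR) and *Onecut1* with vehicle was at 0.36. Libraries of the same number correlated at -0.05 to 0.13, and not every library correlated best with its own number. The block changed the call of no other factor.

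Values that changed sign had not passed. With vehicle, *Hnf4a* was at -0.0052 after the GC correction and at -0.10 to 0.18 with single libraries left out. *Onecut1* was at 0.016 with library size only, 0.011 with at least 10 counts everywhere, 0.0022 by the exact test, 0.0036 with only the groups compared and -0.44 to 1.16 with single libraries left out. *Gm20649* was at -0.17 after the GC correction and at -0.35 to 1.05 with single libraries left out. *Prox1* with NSC was at 0.026 with library size only and at -0.39 to 0.0042 with single libraries left out. Between the treatments *Prox1* was at 0.086 with library size only and at -0.32 to 0.079 with single libraries left out, *Foxa2* at -0.023 to 0.48 and *Cebpa* at -0.015 to 0.42. The *Foxa3* share with NSC against baseline ran from -4.94 to 1.05 percentage points with single libraries left out (-4.94 without NSC replicate 1). The causes were not tested.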
